A study of Mus musculus with 22 samples.

Results

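Asb5, Fbxo32, Trim63, Myod1, Myf5, Myog, Myh3, Acta1, Actc1 and Tnnt2 are 10 mouse genes best known from striated muscle, read here in cultured fibroblasts. They were taken by gene symbol from the deposited RNA tables, and they were chosen with the KO minus WT values of these same libraries already known. They make up 10 of the 21050 gene entries in the longer tables, where a symbol on several chromosomes counts once for each. Of the 10, 9 are among the 16271 entries that have a value in all 4 libraries. Messenger RNA was sequenced from primary mouse embryonic fibroblasts without Lsh (KO, Lsh-/-, libraries KO1 and KO2) and from wild-type ones (WT, Lsh+/+, libraries WT1 and WT2). Lsh, the protein of Hells, is a chromatin remodeller needed for normal DNA methylation. Both genotypes are on the C57BL/6 strain, were made from embryo bodies at stage E13.5, grew in the same serum medium and were taken at passage 3 to 4, with no other treatment named. The labels describe the 2 libraries of a genotype as biologic replicates. They give neither the number of embryos behind a culture, nor the deleted stretch of Hells, nor what a replicate number stands for. The p-values below therefore rest on variation among these 4 libraries only, which may be technical in part. In the fit that adds the replicate number, the difference between the numbers is removed and most of the error is borrowed across genes.

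In developing skeletal muscle the transcription factors Myf5 and Myod1 commit cells to the muscle lineage, and Myog drives their differentiation into fibres that express sarcomere proteins. Acta1 and Actc1 encode the skeletal and cardiac alpha actins of the thin filament, Tnnt2 the cardiac form of troponin T, and Myh3 the embryonic myosin heavy chain of the thick filament. Asb5, Fbxo32 (atrogin-1) and Trim63 (MuRF1) belong to the ubiquitin ligase machinery. Fbxo32 and Trim63 are the textbook markers of muscle atrophy, and ASB proteins are substrate adaptors of Cullin 5 ligases.

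The stretches just upstream of 5 of these genes are printed because the values below separate them: Asb5 was the member that differed most between the genotypes, Acta1 and Actc1 were the most abundant, and Trim63 and Myog were near 0 in the replicate 1 libraries. Each run is the 250 bases before the gene's first RefSeq start in GRCm38.p6, 5′ to 3′ on the gene's own strand. Capitals mark every match, on either strand, to CANNTG (the E-box read by Myod1 and Myog), TTGTTTAC (a forkhead motif), the CArG box (read by SRF) and the MEF2 site, and no marked matches overlap in these runs. The windows lie at chr8:54550081-54550330 (Asb5, plus strand), chr8:123894776-123895025 (Acta1, minus strand), chr2:114052876-114053125 (Actc1, minus strand), chr1:134289754-134290003 (Myog, plus strand) and chr4:134314870-134315119 (Trim63, plus strand).
Asb5: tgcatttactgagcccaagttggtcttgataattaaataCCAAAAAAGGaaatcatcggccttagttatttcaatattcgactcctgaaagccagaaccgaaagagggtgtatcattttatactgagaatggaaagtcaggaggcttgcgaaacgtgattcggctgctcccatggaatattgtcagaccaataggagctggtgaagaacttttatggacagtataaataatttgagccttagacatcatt
Acta1: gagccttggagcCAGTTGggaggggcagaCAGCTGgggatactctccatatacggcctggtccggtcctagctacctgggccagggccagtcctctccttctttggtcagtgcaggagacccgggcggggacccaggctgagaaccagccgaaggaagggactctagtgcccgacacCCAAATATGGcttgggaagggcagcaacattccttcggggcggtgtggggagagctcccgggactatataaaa
Actc1: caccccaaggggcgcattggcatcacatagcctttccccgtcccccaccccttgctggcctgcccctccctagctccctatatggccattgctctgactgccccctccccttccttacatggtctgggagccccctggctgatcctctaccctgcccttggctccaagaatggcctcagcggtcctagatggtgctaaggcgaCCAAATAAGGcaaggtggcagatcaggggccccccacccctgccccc
Myog: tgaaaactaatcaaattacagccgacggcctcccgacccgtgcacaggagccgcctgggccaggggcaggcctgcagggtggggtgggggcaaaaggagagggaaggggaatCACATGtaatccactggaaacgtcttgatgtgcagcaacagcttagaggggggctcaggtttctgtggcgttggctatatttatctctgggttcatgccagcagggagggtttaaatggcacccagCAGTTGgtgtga
Trim63: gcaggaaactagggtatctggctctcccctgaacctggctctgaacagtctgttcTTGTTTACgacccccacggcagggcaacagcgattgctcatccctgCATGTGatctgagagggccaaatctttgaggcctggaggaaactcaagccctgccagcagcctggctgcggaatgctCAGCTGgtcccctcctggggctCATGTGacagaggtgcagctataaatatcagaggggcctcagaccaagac
The Asb5, Acta1 and Actc1 windows each hold 1 CArG box, a motif found in 1.47% of the 32851 RefSeq mouse windows of this length. CANNTG is frequent, with a match in 66.2% of all windows; the Trim63 window holds 3, the Acta1 and Myog windows 2 each, and the Asb5 and Actc1 windows printed here 0. TTGTTTAC occurs in 1.07% of all windows and once in that of Trim63. The MEF2 site was searched in a single strict form, found in 2.92% of all windows, and runs of letters close to it, such as one in the Myog window, are not marked. Asb5 has 2 further RefSeq starts downstream, whose windows each hold 1 CANNTG and no CArG box, and the nearer of them 1 MEF2 site. Of CG dinucleotides, the substrate of the methylation that Lsh is needed for, Acta1 has 9, Myog 7, Asb5 6, Actc1 4 and Trim63 4, beside a median of 6 over all windows. Windows were found for 8 of the 10 genes; Fbxo32 and Myod1 are named only. A match describes the letters of a window and not binding.

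The replicate 1 and replicate 2 tables differ, and so do the libraries. They held 122.5, 136.1, 132.2 and 176.6 M (mega) mapped reads in KO1, KO2, WT1 and WT2, and 26886 transcripts are listed for replicate 1 and 21136 for replicate 2. Hells itself was at 0.430 and 0.550 RPKM (reads scaled to transcript length in kilobases and to M mapped reads) in KO1 and KO2, against 0.865 and 1.06 RPKM in WT1 and WT2, so both KO libraries lay below both WT libraries. All 14 fibroblast markers examined passed the filter on low values, and Vim, the fibroblast intermediate filament gene, was at 1198 and 782.2 RPKM in KO1 and KO2, against 1307 and 879.2 RPKM in WT1 and WT2. The collagen genes Col1a1 and Col1a2 were at 288.6 RPKM or more in each library. These 3, the most abundant of the 14, were lower in KO within both numbers, whereas 8 of the 14 were higher in KO within both, such as Thy1 at 444.4 and 234.8 RPKM in KO1 and KO2, against 252 and 220.2 RPKM in WT1 and WT2. With the number as a term 0 of the 14 passed the threshold between the genotypes, beside 0.673% of all genes tested. Between the numbers 10 were higher and 3 lower in replicate 2, beside 35.8% and 11.9% of all genes tested. Lum, a matrix proteoglycan gene, was at 1.27 and 104.6 RPKM in KO1 and KO2, against 0.718 and 108.2 RPKM in WT1 and WT2, and Dcn at 13.9 and 128.6 RPKM, against 3.88 and 121.2 RPKM. A value of 0 is not proof of silence in these tables. Gapdh, a glycolytic gene of every cell, was listed at 0.298, 0.179 and 0.160 RPKM in KO1, KO2 and WT1 and at 0 in WT2.

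Among the 10 genes, 6 were higher in KO than in WT within both replicate numbers, whereas the 2 sarcomeric actins were not. The 6 were the ligase adaptors Asb5 and Fbxo32, the troponin Tnnt2, and Myod1, Myog and Myh3, which were near 0 in replicate 1. Asb5 was 5.89 times as high in KO1 as in WT1 and 13.7 times as high in KO2 as in WT2. Fbxo32 was 3.44 and 2.44 times as high, and Tnnt2 2.81 and 3.09 times as high. Acta1, the most abundant of the 10, was at 0.649 and 0.873 of its WT level. The myogenic factors and the embryonic myosin were at most 0.0396 RPKM in the replicate 1 libraries, and between 0.0444 and 1.34 RPKM in the replicate 2 libraries, where the values of Myod1, Myog and Myh3 were higher in KO2 than in WT2.

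**Figure D1:**
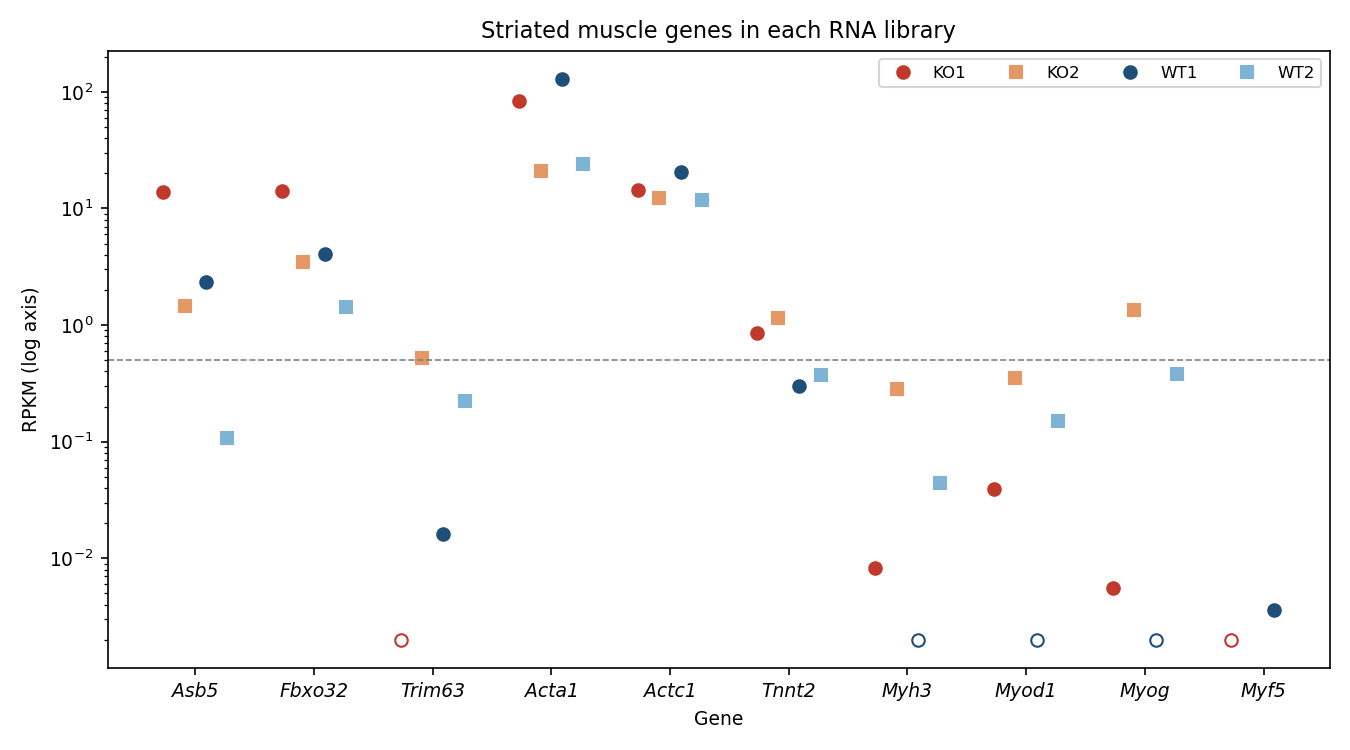
RPKM of the 10 genes (log axis) in each RNA library, KO1 and KO2 left of WT1 and WT2 for each gene, circles for replicate 1 and squares for replicate 2. Open circles at the bottom are values listed at 0, Myf5 has no value in replicate 2, and the dashed line is the 0.5 RPKM of the filter; Acta1 reaches 129.4 RPKM in WT1, and Trim63, Myh3, Myod1, Myog and Myf5 lie below the line in both replicate 1 libraries.

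Asb5 (NM_029569, chromosome 8, 55635684 to 55673190, plus strand, mm9) encodes an ankyrin repeat and SOCS box protein. Its level was 13.8 RPKM in KO1 and 1.47 RPKM in KO2, against 2.34 RPKM in WT1 and 0.108 RPKM in WT2. Each KO library was above the WT library of the same number, but the genotypes overlapped, since WT1 lay above KO2. These levels correspond to 2670 and 316 reads in KO1 and KO2 and to 489 and 30 reads in WT1 and WT2. By counting error alone the ratio of KO to WT had a 95% exact interval of 5.35 to 6.50 for replicate 1 and of 9.38 to 20.6 for replicate 2. Reads made by PCR are not independent molecules, so this and the like intervals below cover counting error only. On the log2(RPKM + 0.5) scale, on which the changes of low genes appear smaller than they are, the KO minus WT difference was 2.33 in replicate 1 and 1.70 in replicate 2, with a mean of 2.01. The standard error of that mean was 1.27 with genotype as the only term of the limma fit, where the fall between the replicate numbers counts as error, and 0.20 with the number as a second term (2 libraries a genotype). In rank, Asb5 stood at percentile 85.2 of all genes in KO1 and 42.4 in KO2, against 54.3 in WT1 and 20.7 in WT2.

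Fbxo32 (NM_026346, chromosome 15, 58011634 to 58046434, minus strand, mm9) encodes the F-box protein atrogin-1, a substrate adaptor of an SCF ubiquitin ligase. It was at 14.0 RPKM in KO1 and 3.45 RPKM in KO2, against 4.09 RPKM in WT1 and 1.41 RPKM in WT2. As with Asb5, KO was above WT within each number and WT1 was above KO2, so the groups overlapped. The reads were 4683 and 1277 in KO1 and KO2, against 1470 and 680 in WT1 and WT2, and the ratios of 3.44 and 2.44 had counting intervals of 3.24 to 3.65 and of 2.22 to 2.68. The log2 difference was 1.67 in replicate 1 and 1.04 in replicate 2, with a mean of 1.35 (standard error 0.81 with genotype only, 0.19 with the number as a term). Trim63 (chromosome 4, 133871035 to 133885545, plus strand, mm9), the RING-finger ligase usually named beside Fbxo32, was near the bottom of the range. It was listed at 0 in KO1 and was at 0.522 RPKM in KO2, against 0.0160 RPKM in WT1 and 0.225 RPKM in WT2. Its order therefore differed between the numbers. The replicate 1 values rest on 0 and 4 reads in KO1 and WT1, and those of replicate 2 on 134 reads in KO2 and 75 in WT2, a KO2 to WT2 ratio of 2.32 with a counting interval of 1.73 to 3.12.

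Myod1 (chromosome 7, 53631844 to 53634463, plus strand, mm9) was at 0.0396 and 0.349 RPKM in KO1 and KO2, and was listed at 0 in WT1 and at 0.150 RPKM in WT2. Myog (chromosome 1, 136186581 to 136189126, plus strand, mm9) was at 0.00552 and 1.34 RPKM in KO1 and KO2, and was listed at 0 in WT1 and at 0.383 RPKM in WT2. Both factors were higher in KO than in WT within each number, and both replicate 2 libraries were above both replicate 1 libraries, so here too the genotypes overlapped. The replicate 2 reads were 88 in KO2 and 49 in WT2 for Myod1, a ratio of 2.33 with a counting interval of 1.62 to 3.38. For Myog they were 270 in KO2 and 100 in WT2, a ratio of 3.50 with a counting interval of 2.77 to 4.45. In replicate 1 Myod1 rested on 9 reads in KO1 and Myog on 1 read. Myf5 (chromosome 10, 106919964 to 106923191, minus strand, mm9), the earliest of these factors in the embryo, was listed at 0 in KO1 and at 0.00363 RPKM, a single read, in WT1, and has no row in the replicate 2 tables.

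Myh3 (chromosome 11, 66891802 to 66915794, plus strand, mm9) was at 0.00818 and 0.281 RPKM in KO1 and KO2, and was listed at 0 in WT1 and at 0.0444 RPKM in WT2. It had 229 reads in KO2 and 47 in WT2, a ratio of 6.32 with a counting interval of 4.60 to 8.85, and 6 reads in KO1. Myh3, Myog and Myod1 thus shared an order of libraries, with KO2 highest, WT2 next, KO1 low and WT1 at 0.

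Acta1 (chromosome 8, 126415667 to 126418637, minus strand, mm9) was at 84.0 and 20.8 RPKM in KO1 and KO2, against 129.4 and 23.8 RPKM in WT1 and WT2. It was the one member lower in KO within both numbers, with log2 differences of -0.62 and -0.19 and a mean of -0.41 (standard error 1.09 with genotype only, 0.18 with the number as a term). Actc1 (chromosome 2, 113873025 to 113878548, minus strand, mm9) was at 14.5 and 12.2 RPKM in KO1 and KO2, against 20.5 and 11.8 RPKM in WT1 and WT2. Its log2 difference was -0.49 in replicate 1 and 0.05 in replicate 2, so it was lower in KO in one number and level in the other. The actin genes closely resemble each other and the smooth muscle and cytoplasmic actins in their coding stretches, and the handling of reads that match several places is not given in the sources used here, so reads of one actin may have been counted to another. Acta2, the smooth muscle actin, was at 579 and 296.6 RPKM in KO1 and KO2, against 737 and 338.6 RPKM in WT1 and WT2, which is the same order of libraries as that of Acta1.

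Tnnt2 was the one member whose 2 KO libraries both lay above both WT libraries. Its level, summed over 10 RefSeq transcripts on the plus strand of chromosome 1 (137732963 to 137748839, mm9), was 0.850 and 1.15 RPKM in KO1 and KO2, against 0.302 and 0.372 RPKM in WT1 and WT2. Such a separation of the genotypes was found in 6.1% of the genes tested, and the reverse, seen in 0 members, in 7.32%, and nothing is read from it here because the genes were chosen on this contrast. The log2 difference was 0.75 in replicate 1 and 0.92 in replicate 2, with a mean of 0.83 (standard error 0.35 with genotype only, 0.16 with the number as a term). The transcript with the highest level, NM_001130176, which starts 4475 bases downstream of NM_011619, held 35.4% and 32.4% of the sum in KO1 and KO2 and 30.05% in both WT libraries. Its own level was 0.301 and 0.372 RPKM in KO1 and KO2, against 0.0908 and 0.112 RPKM in WT1 and WT2, ratios of 3.31 and 3.33, which 5 further transcripts share. For the other 4, NM_011619 among them, the listed ratios were 1.09 and 2.24. Each of the 10 transcripts also held the same share of the sum in WT1 as in WT2, such as 11.25% for NM_011619. Values that move together in this way are not 10 separate measurements. No difference between transcripts is therefore read from them, and none was tested.

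**Figure D2:**
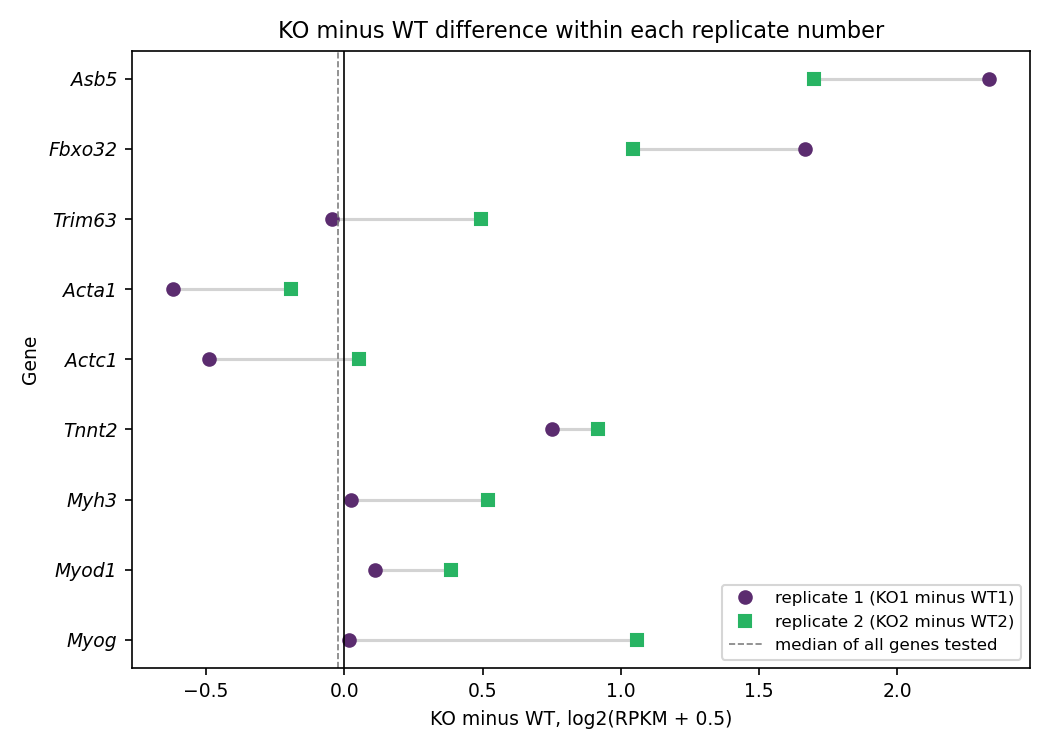
KO minus WT difference on the log2(RPKM + 0.5) scale for the 9 genes with a value in all 4 libraries, within replicate 1 (circles, KO1 minus WT1) and replicate 2 (squares, KO2 minus WT2). Asb5, Fbxo32 and Tnnt2 lie right of 0 in both, as do Myod1, Myog and Myh3, whose replicate 1 differences are at most 0.11. Acta1 lies left of 0 in both, and the dashed line is the median of all genes tested, -0.02.

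Set against all genes, 5 of the 10 members (Asb5, Fbxo32, Acta1, Actc1 and Tnnt2) passed the filter of at least 0.5 RPKM in at least 2 libraries and were tested. Tnnt2 passed it through its KO libraries alone. In limma with genotype as the only term, 0 of the 5 and 0 of all 11149 genes (0%) passed an adjusted p of 0.05, and 41 genes had an unadjusted p below 0.05. With the number added as a term 3 of the 5 passed it as higher in KO, which 0.377% of all genes did, and 0 as lower, which 0.296% did. In either direction, 0.673% of all genes passed. The members were chosen on this contrast, so these counts describe the choice. Asb5 and Fbxo32 lost the call when no filter was used and when each gene was represented by its transcript of highest mean. Tnnt2 lost it with no filter and with a pseudocount of 0.1 or 1, and was not tested with a filter of 1 RPKM or with the highest-mean transcript. Of the 9 members with a value in every library, members below the filter included, 6 were above WT within both numbers. So were 22.5% of the genes tested and 23.1% of all 16271 genes with a value in every library. Below WT within both numbers was 1 member, as were 31.4% of the genes tested. The median difference of all genes was -0.07 in replicate 1 and 0.02 in replicate 2.

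The difference between the replicate numbers is independent of genotype in this layout, and 4 of the 5 tested members were past the threshold as lower in replicate 2, which 11.9% of all genes were. On the log2 scale the replicate 2 minus replicate 1 difference of Asb5 was -2.86 between the KO libraries and -2.23 between the WT libraries. Its mean was -2.54 (standard error 0.20, limma adjusted p 5.56e-06). Acta1 differed nearly as much, at -2.20 (standard error 0.18, limma adjusted p 5.14e-06). For Fbxo32 the difference was -1.57 (standard error 0.19, limma adjusted p 0.00011), and for Actc1 it was -0.50 (standard error 0.18, limma adjusted p 0.041). The call of Actc1 was lost with no filter (adjusted p 0.11) and with the highest-mean transcript (0.068). Tnnt2 gave 0.20 (standard error 0.16), which did not pass (limma adjusted p 0.32). Of all genes tested, 47.7% were past the threshold in this contrast, most of them (35.8%) as higher in replicate 2. The median of all genes was itself 0.25 higher in replicate 2. With quantile normalization the split of all genes was 2427 higher and 2267 lower in place of 3992 and 1331, with median-ratio scaling it was 2928 and 1999, and under both the 4 members stayed past the threshold as lower.
Trim63, Myod1, Myog and Myh3 went the other way. They were higher in replicate 2 in both genotypes, and since they did not pass the filter they were not tested among the 11149 genes. Among all 16271 genes, with no filter, the replicate 2 minus replicate 1 difference was 0.76 for Trim63 (limma adjusted p 0.023), 0.52 for Myod1 (0.017), 1.34 for Myog (0.026) and 0.37 for Myh3 (0.084).

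The other genes of the muscle program were taken from 5 lists with 114 symbols (myogenic regulators, myoblast and fusion genes, thick filament, thin filament, and Z disc and muscle cytosol), which include 7 of the 10 genes. Of these, 105 had a value in all 4 libraries, 66 stayed below 0.5 RPKM in each and 37 were tested. Of the 36 tested genes other than Tnnt2 that these lists hold, members included, 0 passed the threshold in either direction with the number as a term, beside 0.673% of all genes tested. Tnnt2 passed it, but it entered through its KO libraries alone, was chosen on this contrast and lost the call with other pseudocounts, as given above. The median KO minus WT difference of the 37 was -0.14, beside -0.02 for all genes tested; 9 were above WT within both numbers and 16 below, beside 22.5% and 31.4% of all genes tested. Between the replicate numbers, 10 of the 37 were higher and 15 lower in replicate 2, beside 35.8% and 11.9% of all genes tested.

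The abundant muscle-list genes are also used by fibroblasts, and the 4 tropomyosins were, like Acta1, below WT within replicate 1, with log2 differences of -0.35 for Tpm1, -0.63 for Tpm2, -0.21 for Tpm3 and -0.27 for Tpm4. In replicate 2 the gaps were smaller for Tpm1, Tpm2 and Tpm4 (-0.16, -0.07 and -0.00083) and alike for Tpm3 (-0.24). Tpm1 was at 1082 and 627.5 RPKM in KO1 and KO2, against 1377 and 703.3 RPKM in WT1 and WT2. Tpm4 was at 300.6 and 238.9 RPKM in KO1 and KO2, against 363.2 and 239 RPKM in WT1 and WT2, and Tpm3 at 114.7 and 83.1 RPKM, against 132.8 and 98.2 RPKM. Tpm2 was at 17.2 and 7.27 RPKM in KO1 and KO2, against 26.9 and 7.65 RPKM in WT1 and WT2. Tpm1, Tpm2, Tpm3 and Tpm4 did not pass the threshold with the number as a term (limma adjusted p 0.64, 0.65, 0.80 and 0.90). Id1 and Id3, which bind E proteins and hold back Myod1, were below WT within both numbers and short of the threshold as well, with log2 differences of -0.61 (standard error 0.16) and -0.42 (standard error 0.15). Twist1, a mesenchymal factor that opposes muscle differentiation, was at 18.4 and 66.8 RPKM in KO1 and KO2, against 24.5 and 73.4 RPKM in WT1 and WT2. The membrane proteins Ncam1 and Itga7 and the chaperone Cryab were above WT within both numbers, again short of the threshold. Ncam1 was at 58.4 and 52.8 RPKM in KO1 and KO2, against 54.3 and 44.2 RPKM in WT1 and WT2, and Cryab at 81.8 and 56.8 RPKM, against 64.5 and 40.9 RPKM. Itga7, an integrin of muscle cells, was at 6.48 and 2.93 RPKM in KO1 and KO2, against 3.16 and 2.34 RPKM in WT1 and WT2. Myof, a membrane repair gene, differed by 0.30 and Atp2a2, the calcium pump of slow muscle and many other cells, by 0.07 on the log2 scale (standard errors 0.18 and 0.17).

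Des, the muscle intermediate filament desmin, stood apart in a single library, at 2.38 RPKM in KO1 and 38.0 RPKM in KO2, against 23.7 and 31.5 RPKM in WT1 and WT2. Its log2 difference was -3.07 in replicate 1 and 0.26 in replicate 2. Of the thick filament genes Myom1 alone passed the filter, at 0.535 and 0.641 RPKM in KO1 and KO2, against 1.14 and 0.451 RPKM in WT1 and WT2, and its order turned between the numbers. Myl1 was at 0.0400 and 0.459 RPKM in KO1 and KO2, and was listed at 0 in WT1 and at 0.159 RPKM in WT2, and Myl4 was at 0.0740 and 0.250 RPKM in KO1 and KO2, against 0.171 and 0.0770 RPKM in WT1 and WT2.

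Genes of differentiated muscle fibres were at the low levels of Myog and Myh3. The set counted next came from all the muscle lists, regulators such as Pax7 included. It held the members Myod1 and Myh3, which were chosen on the KO minus WT contrast. Of the 66 muscle-list genes below 0.5 RPKM in each library, 32 (48.5%) were higher in KO1 than in WT1 and 51 (77.3%) were higher in KO2 than in WT2. Lower in KO were 15 (22.7%) in replicate 1, where the rest were equal, and 15 (22.7%) in replicate 2. Over the 4686 genes of all kinds below this level, 43.8% and 48% were higher in KO in replicates 1 and 2, and 36.9% and 52% were lower. KO was higher within both numbers at once for 28 of the 66 (42.4%), beside 23.9% of the 4686. These shares were chosen for description after the values were seen and carry no test. Among the 15 lower in KO2, the largest KO2 minus WT2 difference was that of Pln, -0.08 on the log2(RPKM + 0.5) scale. Values follow for the 3 of the 66 genes with the largest such differences, 0.57 to 0.72, picked after they were seen. They are the extremes of the set and do not stand for it. Mb, the oxygen store myoglobin, was listed at 0 in KO1 and was at 0.485 RPKM in KO2, against 0 in WT1 and 0.164 RPKM in WT2. The light chain gene Mylpf was at 0.0216 and 0.341 RPKM in KO1 and KO2, and was listed at 0 in WT1 and at 0.0300 RPKM in WT2. Tmem8c (Mymk), which fuses myoblasts, was at 0.0471 and 0.498 RPKM in KO1 and KO2, and was listed at 0 in WT1 and at 0.104 RPKM in WT2. Other defining genes stayed near 0 everywhere. Pax7, the satellite cell factor, was listed at 0 in KO1, KO2 and WT1 and was at 0.00265 RPKM in WT2, and Ckm, the muscle creatine kinase, reached 0.0467 RPKM in KO2 and was listed at 0 in the other libraries. In RNA from whole cultures, fewer cells of a type and less RNA per cell cannot be told apart.

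**Figure D3:**
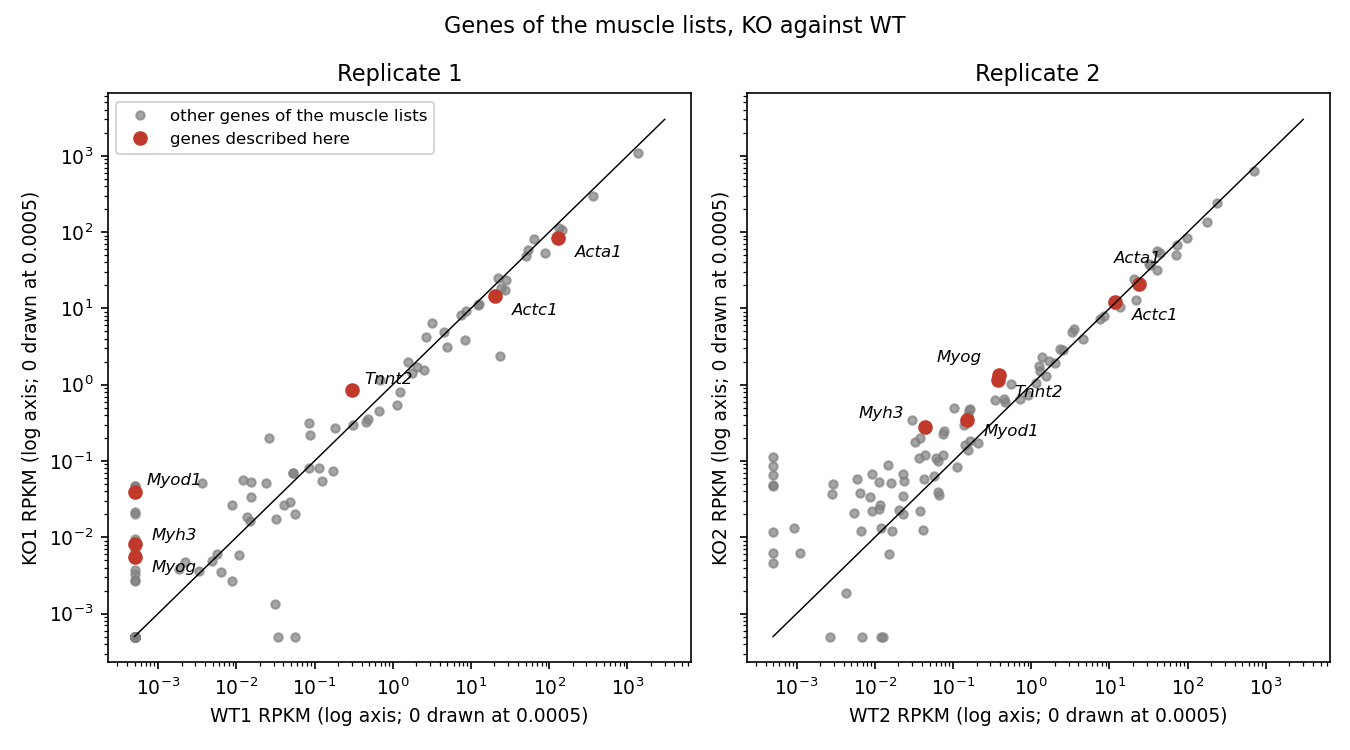
RPKM in KO (vertical) against RPKM in WT (horizontal), both on log axes, for the 105 genes of the muscle lists with a value in all 4 libraries, replicate 1 on the left and replicate 2 on the right, with the line of equal levels. The members on these lists are in red, values listed at 0 are drawn at the edge, and in replicate 2 most genes below 0.5 RPKM lie above the line.

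Of the atrophy and FoxO programme, the gene set in which Fbxo32 and Trim63 are usually placed, 27 of 33 listed symbols were tested. Fbxo32 passed the threshold with the number as a term, but it was chosen on this contrast, so its call describes the choice. Of the other 26, 0 passed, beside 0.673% of all genes tested, and at that share the 0 sets nothing apart. The other 26 include the forkhead factors Foxo1 and Foxo3, with log2 differences of -0.10 (standard error 0.17) and 0.15 (standard error 0.17). Nedd4, Sqstm1 and Eif4ebp1, the most abundant of the list, differed by 0.04, 0.18 and -0.16 (limma adjusted p 0.98, 0.84 and 0.87). Pdk4, a FoxO target that blocks pyruvate use, was at 2.80 and 1.27 RPKM in KO1 and KO2, against 1.71 and 0.713 RPKM in WT1 and WT2. It was above WT within both numbers and short of the threshold (limma adjusted p 0.26). Of the 27, Fbxo32 included, 12 were above WT within both numbers and 5 below, beside 22.5% and 31.4% of all genes tested.

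Of the ASB family and the Cullin 5 ligase, 12 of 21 listed symbols were tested. Asb5 passed the threshold with the number as a term, but like Fbxo32 it was chosen on this contrast. Of the other 11, 0 passed, beside 0.673% of all genes tested, so the count is no trait of the family. Rnf7, Tceb1 and Tceb2, the RING and elongin subunits of the ligase, differed by -0.22, -0.04 and -0.28 (standard errors 0.17, 0.18 and 0.17). Cul5, the scaffold, was at 7.81 and 8.95 RPKM in KO1 and KO2, against 9.11 and 7.94 RPKM in WT1 and WT2, so its order turned between the numbers. Of the other ASB genes tested, Asb1 had the largest difference, 0.23 (standard error 0.18). Asb2 and Asb15, muscle-expressed relatives of Asb5, reached at most 0.213 and 0.0224 RPKM, both in KO2.

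The genes next to Asb5 and Fbxo32 were set beside them. The 3 nearest genes on each side of Asb5 in the deposited coordinates were Neil3, Vegfc, Spcs3, Spata4, Wdr17 and Gpm6a, and those around Fbxo32 were Zhx1, Atad2, Wdyhv1, Klhl38, Anxa13 and D15Ertd621e. Of these 12 genes, 8 were tested and 0 passed the threshold in either fit. Over all genes tested 0.673% passed with the number as a term and 0% with genotype only. At such shares a count of 0 among 8 is no trait of these neighbours. Vegfc, a lymphatic growth factor whose gene is the second before Asb5, came closest, with 8.13 and 9.07 RPKM in KO1 and KO2, against 4.71 and 5.34 RPKM in WT1 and WT2 (log2 difference 0.72, limma adjusted p 0.099 with the number as a term). Spcs3, the gene next before Asb5, was at 46.8 and 42.8 RPKM in KO1 and KO2, against 56.5 and 33.5 RPKM in WT1 and WT2. Klhl38, the next gene beyond Fbxo32 on the higher-coordinate side, was too low to be tested, at 0.166 and 0.272 RPKM in KO1 and KO2, against 0.0274 and 0.0589 RPKM in WT1 and WT2. Both its KO libraries lay above both WT libraries, as in 6.1% of the genes tested.

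**Figure D4:**
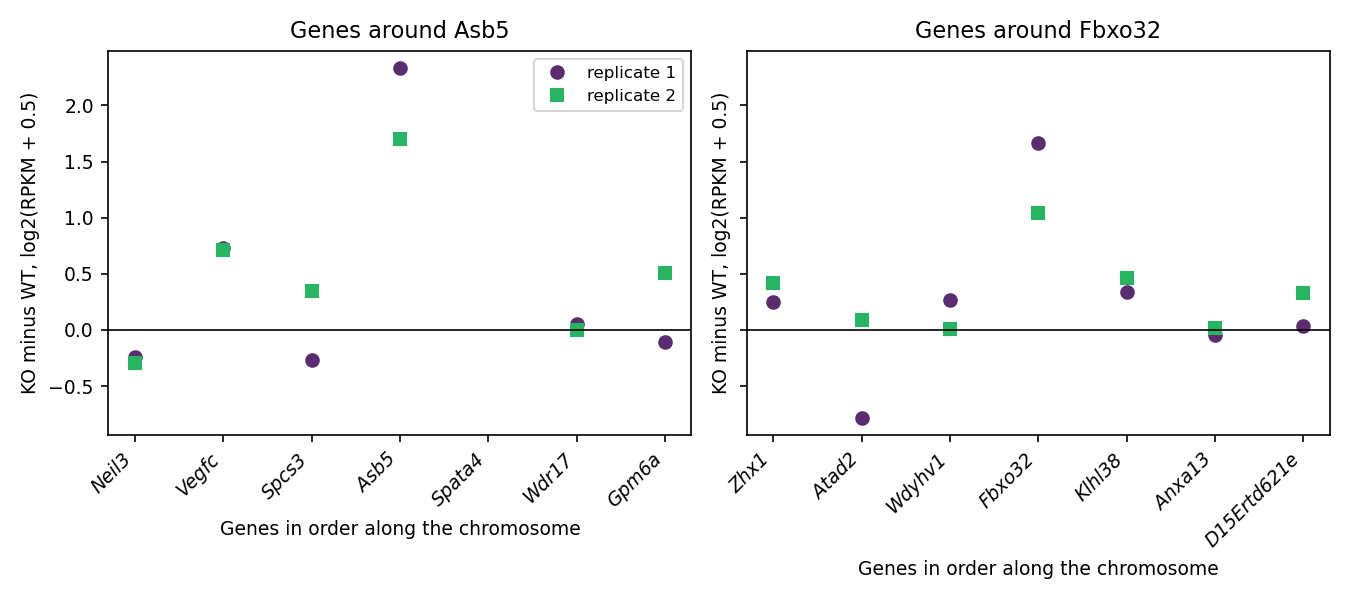
KO minus WT difference on the log2(RPKM + 0.5) scale for Asb5 (left) and Fbxo32 (right) and the 3 genes on each side, in order along the chromosome, within replicate 1 (circles) and replicate 2 (squares). Asb5 at 2.33 and 1.70 and Fbxo32 at 1.67 and 1.04 are the highest points of their panels, and Spata4 has no value in replicate 2.

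The genes with the pattern most like that of Asb5 over the 4 libraries were Fgl2, Il6, Glipr1, Siglecg and Cd80, by the distance between centred log2(RPKM + 0.5) values. Fgl2, the nearest at a distance of 0.74, was at 17.6 and 2.49 RPKM in KO1 and KO2, against 3.44 and 0.995 RPKM in WT1 and WT2, and Il6, an inflammatory cytokine, at 11.3 and 1.30 RPKM, against 2.29 and 0.511 RPKM. For Fbxo32 they were Olr1, Mmp10, Klra18, Cd80 and Siglecg. Olr1, a receptor for oxidised lipoprotein, was at 14.5 and 3.61 RPKM in KO1 and KO2, against 3.90 and 1.33 RPKM in WT1 and WT2, a distance of 0.11. Asb5 and Fbxo32 lay 1.18 apart, so that Fbxo32 ranked 11 among the genes near Asb5, and Asb5 ranked 153 among those near Fbxo32. With 4 libraries that split by number and by genotype, likeness of this kind is shared by many genes.

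Markers of some other cell types moved with genotype or number in the same libraries. Of all genes tested, 0.377% passed as higher and 0.296% as lower in KO with the number as a term. Between the numbers 35.8% passed as higher and 11.9% as lower in replicate 2. Of 12 macrophage markers 11 were tested, and Cd14, Laptm5, Fcer1g and C1qc fell in KO with the number as a term (limma adjusted p 0.029, 0.0078, 0.017 and 0.036). Lyz2, C1qa and C1qb, the most abundant of the list, were below WT within both numbers and short of the threshold. Of the 11 tested, 10 were below WT within both numbers. Tyrobp was not, at 1.91 RPKM in KO2 against 1.52 RPKM in WT2. Between the numbers, 10 of the 11 passed as higher in replicate 2. The summed level of the 12 was 8.35 and 86.2 RPKM in KO1 and KO2, against 60.5 and 176.4 RPKM in WT1 and WT2. Of 10 smooth muscle markers 9 were tested, and 0 passed between the genotypes, while 5 passed as lower in replicate 2. Their sums were 1582 and 697.9 RPKM in KO1 and KO2, against 2060 and 813.2 RPKM in WT1 and WT2. Tagln led this list at 872.2 and 341 RPKM in KO1 and KO2, against 1099 and 414 RPKM in WT1 and WT2, the same order of libraries as in Acta1. Cnn1, a calponin, was at 58.1 and 16.2 RPKM, against 144.8 and 23.9 RPKM (log2 difference -0.93, limma adjusted p 0.093). The list did not move as 1: of the 9 tested, 4 were below WT within both numbers and 1, Actg2, was above. Actg2 was at 26.4 and 11.9 RPKM in KO1 and KO2, against 16.5 and 7.29 RPKM in WT1 and WT2 (log2 difference 0.67, limma adjusted p 0.12). Of 12 cardiac markers 5 were tested, and 0 passed between the genotypes, while 4 passed as higher and 1 as lower in replicate 2. Their sums were 8.46 and 18.8 RPKM in KO1 and KO2, against 10.1 and 19.8 RPKM in WT1 and WT2. The cardiac factor Nkx2-5 did not exceed 0.0375 RPKM and was listed at 0 in WT1, and Hand2, Gata6 and Nppb led the list with at most 9.30, 7.00 and 4.36 RPKM.
Of 8 endothelial markers 2 were tested, and 0 passed between the genotypes or between the numbers. Their sums were 0.642 and 2.42 RPKM in KO1 and KO2, against 1.79 and 1.98 RPKM in WT1 and WT2. Tie1 was listed at 0 in KO1, KO2 and WT1. The most abundant, Kdr, Emcn and Tek, reached at most 1.05, 1.34 and 0.301 RPKM. Of 10 neuron markers 3 were tested and Tubb3 rose, at 41.4 and 31.2 RPKM in KO1 and KO2, against 18.5 and 14.7 RPKM in WT1 and WT2 (limma adjusted p 0.012). Stmn2 was at 4.70 and 1.22 RPKM in KO1 and KO2, against 12.7 and 0.973 RPKM in WT1 and WT2, an order opposite to that of Tubb3 in replicate 1, and Nefm at 0.940 and 1.11 RPKM, against 0.686 and 0.693 RPKM. The sums of the neuron list were 47.3 and 34.6 RPKM in KO1 and KO2, against 32.1 and 17.3 RPKM in WT1 and WT2. Between the numbers 1 of its 3 tested genes, Stmn2, passed, as lower in replicate 2. The fibroblast markers summed to 3280 and 3536 RPKM in KO1 and KO2, against 3025 and 3550 RPKM in WT1 and WT2, sums that Vim, Fn1 and the collagens dominate and that hide the differences between the numbers given above for Lum and Dcn. The part of these other cell types, and of what the replicate number stands for, in the values of the muscle genes was not tested.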

How the data were processed

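RNA was measured in 4 libraries, KO1, KO2, WT1 and WT2, and the other 18 samples are not analysed here. The authors deposited RPKM per RefSeq transcript. The submitters' processing notes name Partek and the build mm9, and the deposited readme names Cufflinks; versions, the aligner and how multiply matching reads were treated were not given in the sources used here. Transcripts were summed per gene symbol, and symbols on several chromosomes were kept apart. A gene was tested where 2 or more libraries reached 0.5 RPKM, which 11149 genes did, on log2(RPKM + 0.5) in limma 3.58.1 (R 4.3.3; lmFit, eBayes with trend and robust variance, two-sided, Benjamini-Hochberg over all genes, threshold 0.05), once with genotype only and once with the replicate number added. The second fit leaves 1 residual degree of freedom a gene, and most of the error behind its p-values is borrowed across genes (9.68 prior degrees of freedom). The number was used as a term because the tables split by it: deviations from the genotype means correlate at 0.88 between KO and WT across genes, and Pearson's r is 0.980 for KO1 with WT1 and 0.983 for KO2 with WT2, against 0.897 for KO1 with KO2 and 0.893 for WT1 with WT2. Per the values, single-exon olfactory receptor loci step in whole reads (within 0.02 of a read at every locus used in KO1, KO2 and WT1 and at 24 of 25 in WT2), which gave the mapped reads; reads of a member are the fewest whole reads that fit its RPKM in all libraries, and the counting intervals are exact binomial. Sequences are from RefSeq tables of GRCm38.p6, read with Python 3.11.15 and pandas 2.3.3; intervals used scipy 1.17.1.

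The members, the lists and the tests were chosen with earlier results of these data known, and the lists support nothing. Named genes were the 10 members, Hells, list genes past the threshold with the number as a term, the 3 most abundant genes a list, the 3 neighbours on each side of Asb5 and Fbxo32 and the 5 genes nearest to each in pattern. Gapdh, Foxo1, Foxo3, Pdk4, Cul5, Asb1, Asb2, Asb15, Thy1, Lum, Dcn, Tpm2, Mb, Mylpf, Tmem8c, Pln, Pax7, Ckm, Actg2, Tyrobp, Nkx2-5 and Tie1 were named beyond this rule after their values were seen. Alternatives were other pseudocounts (0.1 and 1), no filter or 1 RPKM, median-ratio scaling, quantile normalization, the transcript with the highest mean, and leaving out libraries or numbers.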

Additional observations from a re-analysis of the deposited data

How the results depend on the processing

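With genotype as the only term, 0 genes passed in limma under every alternative run that kept that term alone, leaving out any 1 library included (0 to 0), while 41 had an unadjusted p below 0.05. With the replicate block (the number in the model) 75 genes passed, 42 higher and 33 lower in KO. Whether same-numbered libraries come from 1 pairing of cultures is not in the labels, so the block removes whatever the number stands for. Of these 75, 35 were among the 37 that passed with a pseudocount of 0.1 and 74 among the 216 with quantile normalization. Only 3 passed with the transcript of the highest mean and 0 with no filter, where 16271 genes were tested; the cause was not tested. A pseudocount of 1, a filter of 1 RPKM and median-ratio scaling gave 59, 70 and 90. The replicate 2 minus replicate 1 count stayed between 4694 and 5237, beside 5323.

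The mean KO minus WT difference of each of the 9 members kept its sign under the pseudocounts, scalings and transcript choices run. That of Asb5 lay between 1.65 and 2.71 and that of Tnnt2 between 0.48 and 1.32, both highest with a pseudocount of 0.1. With a pseudocount of 1 and the number as a term Asb5 was barely past the threshold (limma adjusted p 0.049). Within single numbers Trim63 and Actc1 turned: Trim63 was at -0.05 without replicate 2 and 0.49 without replicate 1, and Actc1 at -0.49 and 0.05. Fbxo32 had 680 reads or more in each library. Asb5 had only 30 in WT2, which leaves its replicate 2 ratio less certain than its replicate 1 ratio. Depth limits Trim63, Myod1, Myog, Myh3 and Myf5 most in replicate 1, where no library held more than 9 reads. With 2 libraries a genotype an exact permutation test of a single gene could not reach the threshold.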
